A study of Bos taurus with 16 samples.

Results

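Monocyte-derived macrophages (MDMs) are phagocytes that blood monocytes turn into when they are cultured, and lipopolysaccharide (LPS) is a glycolipid on the surface of gram-negative bacteria. Macrophages sense LPS through CD14, a protein that passes it on, and through the receptor TLR4 with its partner MD-2. The receptor signals through the adaptors MyD88 and TRIF to the NF-kappaB and interferon regulatory transcription factors, and the genes they switch on include cytokines, chemokines and enzymes that make antimicrobial compounds. In culture this response begins with early cytokine genes and is later joined by feedback inhibitors and by genes of metabolism, so that a sample taken after 2 days is a late view of it. The response described here is that of MDMs from 4 Holstein animals, of the taurine type of cattle (Bos taurus), whose labels carry the numbers 1, 3, 20 and 50.

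Each of the 4 Holstein animals gave an unstimulated and an LPS treated library, which are 8 of the 16 libraries of the study. The other 8 come from 4 Gir animals, of the indicine type, with the numbers 2, 5, 6 and 7. The labels state only taurine or indicine, and the study's methods equate these with Holstein and Gir. Mononuclear cells of healthy animals aged 6 to 12 months were separated on Ficoll, and the adherent cells were differentiated for 11 days in medium with fetal bovine serum, which both groups shared. The cells of each animal were then kept for 48 h with 100 ng/ml LPS of Escherichia coli O111:B4 or with medium only, so that each treatment has 1 culture and 1 library per animal. A change of 1 animal therefore holds both the effect of LPS and any difference between its 2 cultures, and these cannot be told apart within an animal. Poly(A) RNA of each culture was sequenced, and the values are numbers of reads per gene. The genes carry Ensembl identifiers that are not paired with gene symbols, so the genes are described as sets and the identity of the cells was not checked against marker genes.

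The 8 Holstein libraries held between 7742663 and 10296054 reads on genes, so that a level of 1 CPM, the count scaled to the total on genes, stood for between 7.74 and 10.3 reads. The filter and the numbers of genes per library use these totals, shares are percentages of them, and the CPM and log2 CPM levels of genes given further on use totals multiplied by TMM factors. Of the 27607 genes listed, 19204 had a read in at least 1 of the 8 libraries, and 12400 passed the filter of at least 1 CPM in at least 4 libraries. The unstimulated library of animal 3 had 11677 genes over 1 CPM, against between 12602 and 12863 in the other 3 unstimulated libraries. In it 20.0% of the genes tested lay at least 1 log2 unit from the mean of the other unstimulated libraries, compared with 9.73% in animal 1, 17.9% in animal 20 and 12.4% in animal 50. By the median absolute distance animal 20 was the farthest, at 0.440 log2 units compared with 0.407 in animal 3, 0.295 in animal 1 and 0.296 in animal 50. The results are also given without each animal in turn.

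LPS changed 438 of the 12400 genes in Holstein MDMs, which is 3.53%. The count depends on single animals, with 0 calls without animal 20, 77 without animal 1, 146 without animal 50 and 1244 without animal 3. A gene was called when its false discovery rate (FDR), the Benjamini-Hochberg adjusted p of edgeR's quasi-likelihood test with the animal as a block, was under 0.05 and its level changed at least 2-fold. There were 216 rises, or 1.74% of the genes tested, and 222 falls, or 1.79%. The lowest adjusted p was 0.00464, and 849 genes passed the FDR alone, 466 higher and 383 lower with LPS. The balance of rises and falls depends on the processing. Rises made up 75% of the calls at an FDR under 0.01 (30 of 40), 67.5% without animal 1, 67.1% without animal 50 and 24.8% without animal 3, and 35.7% with limma voom and 37.2% with edgeR's likelihood ratio test. With the reads on genes as the library size in place of TMM factors, 159 genes rose and 367 fell, and the rises made up 30.2% of the calls instead of 49.3%. That scaling placed the median change of all genes tested at -0.21 on the log2 scale, compared with -0.01 with TMM factors.

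The called changes were mostly moderate in size. The median of the absolute log2 fold change was 1.63 for rises (quartiles 1.26 and 2.40) and 1.61 for falls (quartiles 1.30 and 2.08). The far end of the range was held by rises: 24 of them and 7 falls changed at least 8-fold, and 10 rises and 0 falls changed at least 16-fold. The highest log2 fold change was 5.08 and the lowest -3.78.

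**Figure D1:**
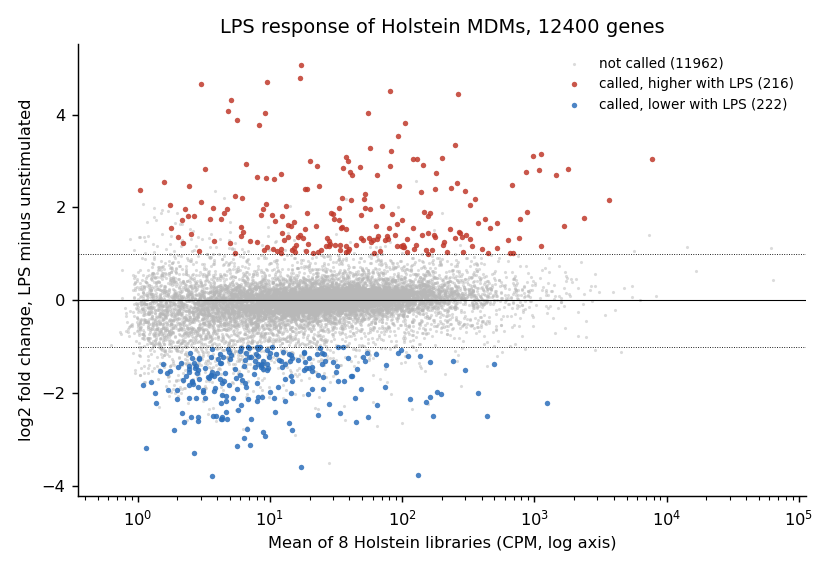
Log2 fold change of LPS treated against unstimulated Holstein MDMs (vertical axis) by mean level over the 8 libraries in CPM (horizontal log axis) for the 12400 genes tested, 1 point per gene, with the 216 called rises in red, the 222 called falls in blue and dotted lines at a change of 2-fold. The blue points crowd at low levels and the red points reach up to the highest levels.

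The calls rest on comparing each animal with itself. Without the block 0 genes were called by the same test, with a lowest adjusted p of 0.0620 and 892 genes at an unadjusted p under 0.05. For the median gene tested, 76.7% of the variance of log2 CPM over the 8 libraries lay between animals, 7.00% between treatments and 10.3% in neither, where the animals count 3 degrees of freedom and the treatment 1. Each animal's 2 libraries also deviated together from their group means, with a correlation across genes between 0.655 and 0.839 for the 4 animals.

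Most rises were genes that unstimulated MDMs already expressed, as were nearly all genes tested, and a larger share of the rises lay under 1 CPM there. Their median level was 17.7 CPM before and 68.2 CPM after LPS, compared with 21.6 and 20.7 CPM for all genes tested. In unstimulated MDMs 15 of the 216 rises had a mean under 1 CPM, beside 91 of the 12400 genes tested. Already over 100 CPM were 43 rises, beside 1670 of the genes tested. After LPS 89 rises were over 100 CPM and 15 were over 1000 CPM, compared with 3 over 1000 CPM before it. For all genes tested these counts were 1744, 95 and 79. All 216 had reads in at least 1 unstimulated library, and so did all 12400 genes tested, so this does not set the rises apart.

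The falls were mostly genes of low level. Their median fell from 11.2 CPM in unstimulated to 3.57 CPM in LPS treated MDMs. Over 100 CPM there were 21 of the 222 falls before LPS and 6 after it, beside 1670 and 1744 of the 12400 genes tested. With LPS 21 falls had a mean under 1 CPM, beside 234 of the genes tested. None of the 222 lost its reads from all 4 LPS treated libraries, and neither did any of the 12400 genes tested.

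The opposite slopes of the rises and the falls over abundance were seen when the genes tested were put into 4 classes of 3100 genes by their mean CPM. From the lowest class (0.634 to 7.16 CPM) to the highest (56.8 to 63670 CPM), the number of rises went from 34 through 44 and 43 to 95. In percent of the class these are 1.10%, 1.42%, 1.39% and 3.06%. The falls went the other way, with 108, 62, 30 and 22 genes, or 3.48%, 2.00%, 0.968% and 0.710%. The precision of a fold change also differs between the classes, with a median standard error of 0.28 on the log2 scale in the lowest class and of 0.10 in the highest. The part of precision in these slopes was not tested, and the classes were counted only for the fit with TMM factors and all 4 animals. Of the 100 most abundant genes, 10 were rises and 1 was a fall.

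**Figure D2:**
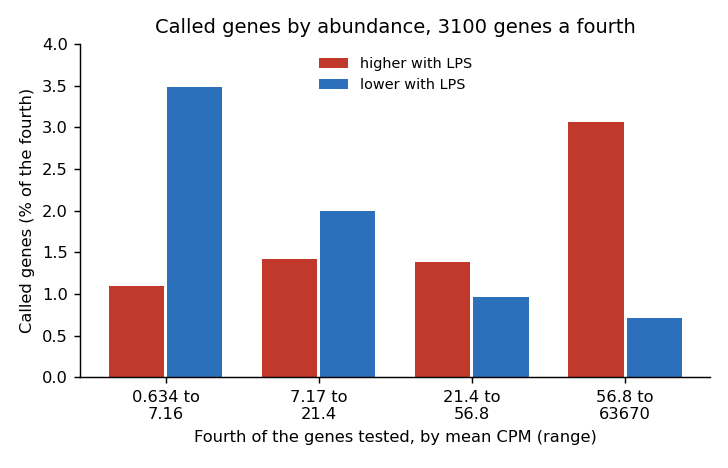
Percent of genes called higher (red) and lower (blue) with LPS in Holstein MDMs in 4 classes of 3100 genes by mean CPM over the 8 libraries, with the range of each class under its bars. Falls outnumber rises in the lowest class (108 against 34) and rises outnumber falls in the highest (95 against 22).

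The rises took up a larger part of the RNA after LPS than the falls gave up. In unstimulated MDMs the 216 rises held 2.53% of the reads on genes in animal 1, 1.37% in animal 3, 2.15% in animal 20 and 1.85% in animal 50. In LPS treated MDMs they held 6.34%, 4.85%, 6.84% and 8.69% in the same order, which is a mean of 1.98% ± 0.49 (SD, n = 4) before and of 6.68% ± 1.58 (SD, n = 4) after. The 222 falls held 1.18% ± 0.59 (SD, n = 4) before and 0.331% ± 0.178 (SD, n = 4) after. These genes were called from the same reads, so the shares are a description and carry no test. A few genes made up much of either set: the 5 most abundant rises held 40.0% of the CPM of all rises with LPS, the highest at 13691 CPM, and the 5 most abundant falls held 39.1% of the CPM of all falls before LPS, the highest at 1909 CPM.

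The RNA of the LPS treated MDMs was also spread over fewer genes, in a measure that does not use the calls. The 100 most abundant genes of each library held a mean of 33.6% of the reads on genes before LPS and 39.2% after it, and the share was higher in 4 of 4 pairs, by between 3.35 and 7.87 percentage points. An exact two-sided sign-flip permutation test over the 4 pairs gave p = 0.125, which is the smallest p that 4 pairs allow. The number of genes over 1 CPM was lower with LPS in 3 of 4 pairs, and in animal 3 it was higher by 264 genes. The TMM factors moved in the same pattern, lying between 1.04 and 1.10 in unstimulated and between 0.890 and 0.988 in LPS treated libraries.

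Among the called genes with all 4 pairs in the same direction, the largest 2 rises and the largest 2 falls illustrate the levels behind the fold changes. ENSBTAG00000020580 had the largest rise. It was at 0.632 CPM in animal 1, 0.236 CPM in animal 3, 0.760 CPM in animal 20 and 1.204 CPM in animal 50 without LPS, and at 16.4, 0.654, 15.96 and 102 CPM with LPS. The rise was steep in animals 1, 20 and 50, and in animal 3 it rested on 2 reads before and 5 reads after LPS, a level within the range of the unstimulated libraries. Its log2 fold change was 5.08 (SE 0.65) with an adjusted p of 0.0133 by edgeR's quasi-likelihood test. ENSBTAG00000039504 was at 0.737, 1.89, 0.109 and 1.42 CPM without LPS in animals 1, 3, 20 and 50, and at 17.6, 29.3, 2.38 and 82.6 CPM with LPS. Here every LPS treated library lay above every unstimulated one, and the log2 fold change was 4.78 (SE 0.32) with an adjusted p of 0.00464 in edgeR.

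Both of the large falls stayed higher in animal 3 than in the other animals. ENSBTAG00000003629 was at 1.68, 19.9, 1.63 and 4.05 CPM without LPS in animals 1, 3, 20 and 50, and at 0.132, 1.70, 0.132 and 0.109 CPM with LPS. Its LPS treated level in animal 3 lay above the unstimulated levels of animals 1 and 20, so the groups overlapped although each pair fell. In animals 1, 20 and 50 the LPS treated level was 1 read each. The log2 fold change was -3.78 (SE 0.28) with an adjusted p of 0.00464 in edgeR. ENSBTAG00000000604 was at 7.05, 909, 18.1 and 64.2 CPM without LPS and at 1.85, 53.9, 1.45 and 2.30 CPM with LPS. Its unstimulated levels spanned over 2 orders of magnitude between animals of 1 breed, and its groups overlapped through animal 3. The log2 fold change was -3.76 (SE 0.43) with an adjusted p of 0.0126 in edgeR.

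**Figure D3:**
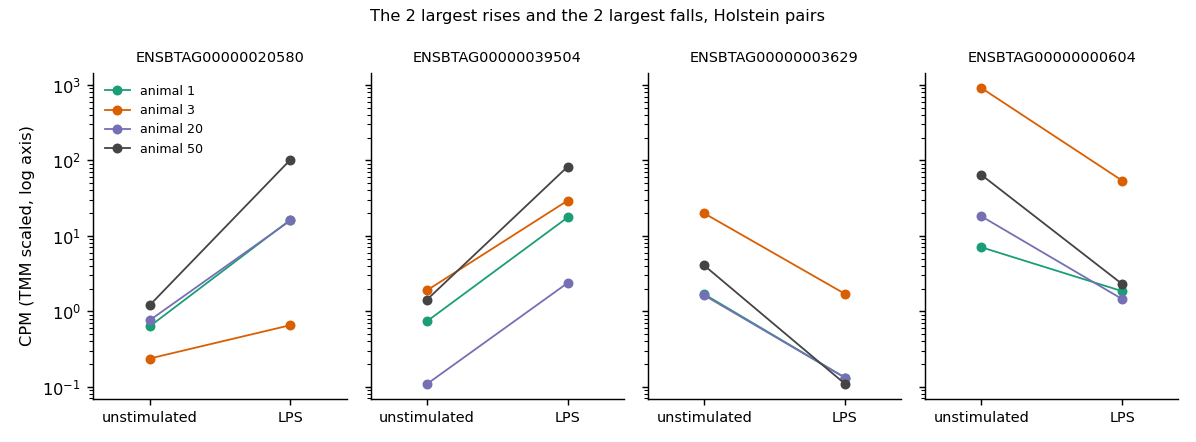
CPM with TMM scaled library sizes (log axis) of the 2 largest rises and the 2 largest falls in unstimulated and LPS treated MDMs, 1 line per Holstein animal; the lines of animals 1 and 20 nearly coincide in the first and the third panel. Each line goes one way within a panel, while the levels of the animals differ by as much as 7.05 against 909 CPM in unstimulated MDMs for ENSBTAG00000000604.

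The 4 pairs agreed in direction for nearly all rises and for fewer of the falls. Of the 216 rises, 215 were higher with LPS in all 4 pairs, beside 17.6% of all genes tested. Of the 222 falls, 180 were lower in all 4 pairs, beside 14.8% of all genes tested. The 42 remaining falls went the opposite way in the same animal, animal 3, and the 1 remaining rise did so in animal 1. A change of at least 1 log2 unit in every pair was found for 112 rises and 49 falls with TMM factors, for 81 rises and 80 falls with library totals, and for 114 rises and 66 falls with TMM factors and a prior count of 0.5, so this count does not set rises and falls apart. For 118 rises (54.6%) all LPS treated libraries lay above all unstimulated ones, beside 2.91% of all genes tested, and for 43 falls (19.4%) all lay below, beside 1.2%. The agreement counts use the reads that called the genes, so they describe the calls and do not support them.

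Within the called genes, whose call favours pairs that agree in direction, the size of the change differed from animal to animal. The median log2 difference of the rises was 1.25 in animal 1, 1.59 in animal 3, 1.47 in animal 20 and 2.01 in animal 50. Animal 50 had the largest of the 4 differences in 128 of the 216 rises, and animal 1 the smallest in 113. For the falls the medians were -1.36, -1.14, -1.45 and -1.75 in the same order, and animal 50 again had the largest change most often, in 92 of 222. Animal 3 had the smallest change in 108 falls. The standard deviation over the 4 pairs had a median of 0.57 log2 units in either set, and it was over 1 in 21 rises and 48 falls.

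Across all 12400 genes tested, animals 1, 20 and 50 shared a pattern that animal 3 did not show. The log2 differences of 2 animals correlated across genes with a Pearson r of 0.688 for animals 1 and 20, 0.671 for animals 1 and 50 and 0.723 for animals 20 and 50. Animal 3 gave r = 0.0613 with animal 1, 0.0865 with animal 20 and 0.119 with animal 50. The points are genes, which are not independent replicates, and each difference is read from 2 libraries.

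The contrast between animals lay in the direction of the changes, and less in their number. At least 1 log2 unit higher with LPS were 259 genes in animal 1, 347 in animal 20, 634 in animal 50 and 949 in animal 3. At least 1 log2 unit lower were 819 genes in animal 1, 977 in animal 20, 1231 in animal 50 and 451 in animal 3. So animal 3 had the most genes higher and the fewest genes lower of the 4 animals. Counting over animals, 464 genes were lower by that much in exactly 3 animals and 51 in all 4, while 93 were higher in exactly 3 animals and 114 in all 4.

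Each animal was then read against genes called from the other 3, so that the call did not use the animal that was read. Without animal 3 the test called 1244 genes, 309 rises and 935 falls, from 6 libraries. The reading took the genes that had also passed the filter over all 8 libraries, 305 of the rises and 860 of the falls. Of the 305 rises, 283 rose in animal 3 (92.8%, beside 50.7% of all genes), with a median difference of 1.28 compared with 1.42 in the other 3 animals. Of the 860 falls, 278 fell in animal 3 (32.3%, beside 49.0% of all genes), and the median difference there was 0.64, compared with -1.44 in the other 3 animals. Since that filter uses animal 3 as well, all 309 rises and 935 falls were also read, on levels scaled over 16 libraries, and 92.9% of the rises and 31.2% of the falls went the same way in animal 3. The rises thus carried over to animal 3 and most of the falls did not.

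The other animals followed the rest in both directions. Without animal 1 the test called 77 genes, and in animal 1 the direction was the same for 49 of 50 rises and 23 of 23 falls that passed the filter over 8 libraries, beside 51.6% of all genes higher and 48.4% lower. Without animal 50 it called 146 genes, with the same direction in animal 50 for 97 of 98 rises and 44 of 48 falls, beside 48.3% of all genes higher and 51.7% lower. Without animal 20 edgeR's quasi-likelihood test called 0 genes, with a lowest adjusted p of 0.0572 and 2079 genes at an unadjusted p under 0.05, so nothing could be read that way. For an equal reading of all animals, the 100 genes of lowest p and at least 2-fold change were taken in each direction from each set of 3 animals. Of these, 98, 97, 100 and 99 rises went the same way in animals 1, 3, 20 and 50, and 100, 21, 98 and 95 falls did, beside between 48.3% and 51.7% of all genes for either direction in these animals.

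**Figure D4:**
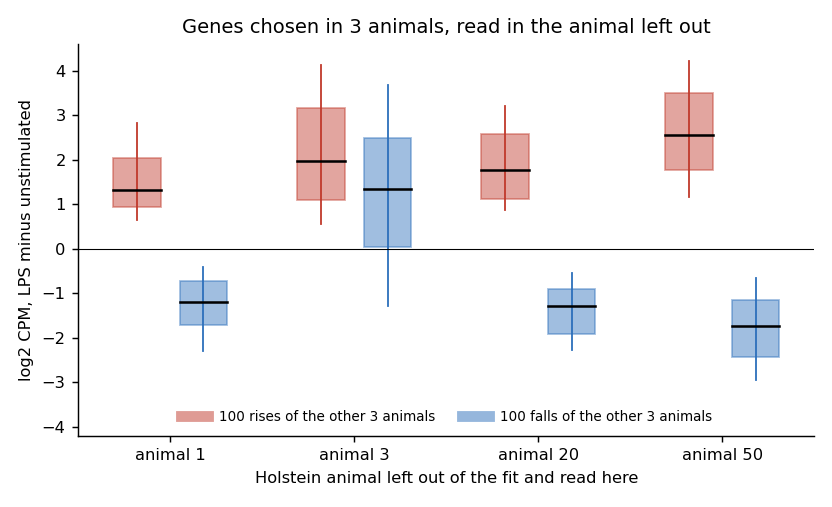
Log2 difference of LPS treated and unstimulated MDMs in each Holstein animal for the 100 rises (red) and the 100 falls (blue) of lowest p in the other 3 animals; the line is the median, the box spans the quartiles and the whiskers reach from the 10th to the 90th percentile of the genes. The blue box of animal 3 lies above 0 with a median of 1.34, and those of animals 1, 20 and 50 have medians of -1.198, -1.29 and -1.72.

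Animal 3 differed at the start and less so after LPS in these falls. For the 935 falls called without it, the median log2 CPM of the unstimulated libraries was 3.11 in animal 1, 3.49 in animal 20, 3.89 in animal 50 and -0.09 in animal 3. In the LPS treated libraries it was 1.78, 1.98, 2.16 and 1.04 in the same order. The next medians are of the 860 of these falls that also passed the filter over 8 libraries, on levels scaled over those 8. Per gene, unstimulated animal 3 differed from the mean of the other 3 animals by a median of -3.41 log2 units. Its LPS treated library differed by a median of -1.10. The same measure for the 23 falls called without animal 1 was -1.01 in unstimulated animal 1. For the 48 called without animal 50 it was 0.03 in unstimulated animal 50. In the 100 falls of lowest p from the other 3 animals, it was -0.81, -5.72, -0.24 and 0.42 in unstimulated animals 1, 3, 20 and 50. The 935 falls were called because the unstimulated libraries of animals 1, 20 and 50 were high, and 924, 926 and 934 of them were over 1 CPM there, so a lower level in a library left out is in part built into the choice. In 687 of the 860 falls tested over 8 libraries (79.9%) animal 3 was the lowest of the 4 unstimulated libraries, beside 33.0% of all genes tested. The share was 10 of 23 falls for unstimulated animal 1 (beside 15.9% of all genes) and 5 of 48 for animal 50 (beside 21.4%), each among the falls called without it. The 935 falls held 5.04%, 6.80% and 11.2% of the reads on genes in unstimulated animals 1, 20 and 50, and 2.64% in animal 3. After LPS they held between 1.19% and 2.29% in all 4.

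In bulk RNA, fewer cells of a type and less RNA per cell cannot be told apart, so these levels do not show whether the unstimulated culture of animal 3 lacked cells that the others held or expressed these genes less. Unstimulated animal 3 had the lowest depth of its group, with 8125681 reads on genes where the other unstimulated libraries held between 8332718 and 8768358. Reads outside annotated genes made up 13.4% of its counted total, within the 12.6% to 13.6% of the others. Reads that mapped to several places made up 8.17%, compared with between 6.24% and 7.57% in the others, and the part of depth or of such reads in the levels was not tested.

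The Gir libraries, from other animals with their own unstimulated cultures, showed the same kind of split at rest. For the 935 falls the median log2 CPM of unstimulated Gir MDMs was 3.30 in animal 2 and 3.03 in animal 7, near Holstein animals 1, 20 and 50. It was 0.91 in animal 5 and 0.93 in animal 6, between these and Holstein animal 3. With LPS all 4 Gir animals lay between 0.34 and 0.77. The same genes were lower with LPS in 82.8% of cases in Gir animal 2 and 88.9% in animal 7, but in 47.1% in animal 5 and 65.9% in animal 6, beside between 50.2% and 51.5% of all genes in these pairs. The unstimulated level enters the difference itself and the LPS treated levels lay close together, so the levels and the differences are not separate findings. The 309 rises had no such split and were higher in 90.3%, 92.9%, 80.9% and 91.3% of cases in Gir animals 2, 5, 6 and 7, beside between 47.3% and 49.0% of all genes.

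**Figure D5:**
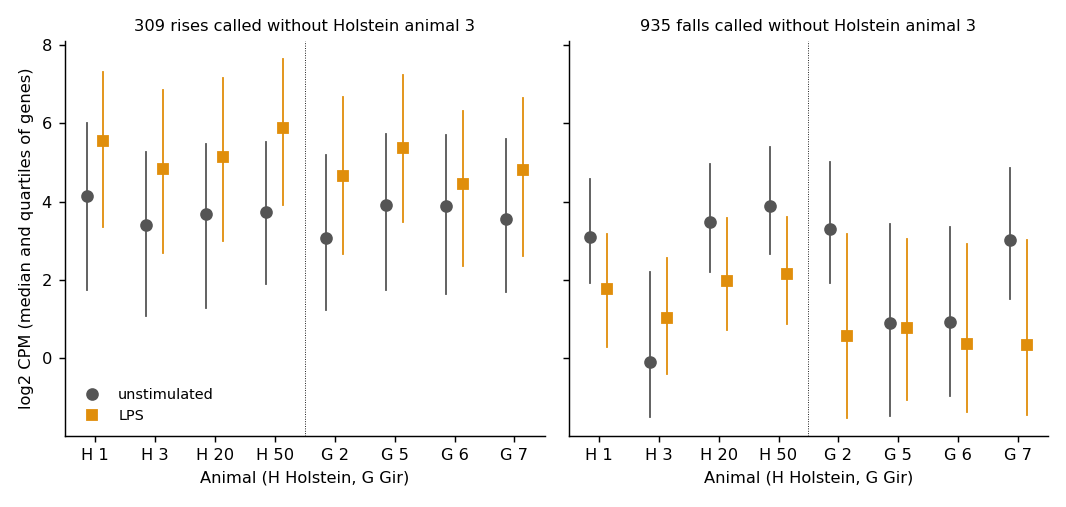
Log2 CPM (median as a symbol, quartiles as a bar) of the 309 rises (left) and the 935 falls (right) called without Holstein animal 3, in unstimulated (grey circles) and LPS treated (orange squares) MDMs of each Holstein (H) and Gir (G) animal. On the right, unstimulated H 3 (-0.09), G 5 (0.91) and G 6 (0.93) lie below the other unstimulated libraries (3.03 to 3.89).

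The 438 genes called in the 4 Holstein pairs mostly moved the same way in Gir MDMs. Of the 216 rises, 205 were tested in Gir, where 202 had a positive fold change (98.5%, beside 49.3% of all genes) and 168 were higher in all 4 pairs (82.0%, beside 11.6% of all genes). Of the 222 falls, 159 were tested in Gir, where 149 had a negative fold change (93.7%, beside 50.7%) and 104 were lower in all 4 pairs (65.4%, beside 12.6%). The changes were smaller in Gir, with a median of 1.18 compared with 1.61 in Holstein for the same rises and of -1.01 compared with -1.45 for the same falls. The Holstein medians are raised by the calling, which used the Holstein libraries, so the gap between the medians is no measure of a difference between the breeds.

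The same test called 32 of 11913 genes in Gir (0.269%), with 26 rises (0.218%) and 6 falls (0.0504%), of which 24 rises and 3 falls were also called in Holstein. Leaving out 1 Gir animal moved the count of 32 to between 0 (without animal 7) and 186 (without animal 6), and it was 310 with DESeq2 and 352 with edgeR's likelihood ratio test. The shared calls are 11.1% of the Holstein rises and 1.35% of the Holstein falls. Whether the response differed between the breeds was tested as an interaction over all 16 libraries with the animal as a block. It called 0 of 12968 genes with edgeR's quasi-likelihood test, with a lowest adjusted p of 0.197 and 1021 genes at an unadjusted p under 0.05, compared with 13 genes by DESeq2 and 114 by edgeR's likelihood ratio test. No gene of the Holstein response was thus shown by the quasi-likelihood test to respond differently in Gir. The test could miss large differences where the standard error is wide. For ENSBTAG00000000604 the Holstein minus Gir difference was -1.82 on the log2 scale (SE 0.59) with an adjusted p of 0.555 in edgeR. For ENSBTAG00000020580 it was 1.79 (SE 0.94) with an adjusted p of 0.648 in edgeR. Both genes were named for their large Holstein changes, which raises these gaps, so the gaps are no measure of a difference between the breeds.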

How the data were processed

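The values are the authors' raw counts, deposited without normalization: 100 bp read pairs from a stranded poly(A) kit were mapped with STAR 2.6.0c, and those with 1 place in the genome were counted on Ensembl genes with HTSeq 0.10.0, whose strand option is not given in the sources used here. The paper names the genome build ARS-UCD1.2 and the labels' processing notes name UMD3.1, and no coordinates are used here. Each file has 27607 genes and 5 counters of reads given to no gene, which were left out of library sizes and tests and made up between 19.7% and 23.2% of the sum in Holstein libraries, with the low-quality counter, equal to that of reads in several places, taken once. No 2 libraries of a group agreed within sampling noise (lowest chi-square per degree of freedom 19.05).

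Genes reaching 1 CPM in 4 or more of 8 libraries (of 16 for the difference between breeds, 3 of 6 with 1 animal left out) were tested with edgeR 4.0.16 in R 4.3.3, using TMM factors, glmQLFit with legacy=FALSE and glmQLFTest. The model had the animal as a block, since the labels give both libraries of an animal the same number and the methods incubated each animal's cells individually. In Holstein each library deviated with its own number (r between 0.655 and 0.839); in Gir r lay between 0.0764 and 0.460, and 3 of 4 animals correlated best with their own number. Calls needed a Benjamini-Hochberg adjusted p below 0.05 and a log2 fold change of 1 or more in size. Standard errors were computed as the absolute log2 fold change over the root of the F statistic. Differences of single pairs used log2 CPM with a prior count of 2. All p-values are two-sided. The scripts were checked on simulated counts. Alternatives used DESeq2 1.42.0 and limma 3.58.1, and figures Python 3.11.15 and matplotlib 3.10.9.

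The set of libraries, the lists and the tests were chosen with earlier results of these data known. The reading of 100 genes per direction was added after the data had been seen. Genes were named as the 2 largest rises and 2 largest falls among calls with all pairs in 1 direction, since a reference table of 37063 genes matched 0 identifiers. With no symbols, the planned lists of pathway genes, cell type markers and promoter motifs were not analysed here.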

Additional observations from a re-analysis of the deposited data

Results flagged for a closer look

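In 8 of the 44 groups of 4 values examined, 1 library lay far from the other 3, measured by its gap to the nearest value relative to the range of the group. A rate of about 1 such group in 20 by chance holds for normally distributed values. It was not checked for these values, some of which are CPM on a linear scale, and the named genes were chosen for large changes. For ENSBTAG00000020580 the libraries set apart were the LPS treated library of Holstein animal 50 at 102.2 CPM and the unstimulated library of Gir animal 6 at 1.484 CPM. For ENSBTAG00000039504 it was the LPS treated library of Gir animal 5 at 241.6 CPM.

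The other 5 fall on the 2 large falls. Holstein animal 3 stood above the other Holstein animals in both treatments, at 19.86 CPM unstimulated and 1.701 CPM with LPS for ENSBTAG00000003629, and at 908.6 and 53.92 CPM for ENSBTAG00000000604. Gir animal 2 stood out at 21.18 CPM unstimulated for ENSBTAG00000003629. Animal 3 was thus the highest Holstein library for these 2 genes and, unstimulated, the lowest for most of the falls called without it.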

How the results depend on the processing

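The count of 438 calls in Holstein was 439 with DESeq2 size factors, 472 with edgeR's legacy quasi-likelihood fit, 423 with filterByExpr, 427 in 1 model over 16 libraries, 526 with library totals (159 rises and 367 falls), 531 with no filter on low counts and 591 with DESeq2. It was 798 with the likelihood ratio test, 701 with limma voom, 849 with no limit on the fold change, 40 at an FDR under 0.01 and 0 without the replicate block. Leaving out 1 animal gave between 0 and 1244: 77 without animal 1, 1244 without animal 3, 0 without animal 20 and 146 without animal 50. In each of these fits the calls that could be tested kept their direction. Of the 438, 416 were called again without animal 3, 138 without animal 50, 70 without animal 1 and 0 without animal 20.

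In Gir the 32 calls became 0 without the replicate block, 310 with DESeq2, 352 with the likelihood ratio test, 120 with no filter and 22 with library totals. Leaving out 1 Gir animal gave between 0 and 186, 66 without animal 2, 9 without animal 5, 186 without animal 6 and 0 without animal 7. The difference between the breeds gave 13 calls by DESeq2 (of 1391 genes its own filter kept), 114 by the likelihood ratio test and 0 without the block, with library totals, with no filter and without any 1 animal. The cause of these changes was not tested.

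The log2 fold changes of the 4 named genes kept their sign in 63 alternative values, and 11 fell short of the threshold. Without the block the adjusted p of edgeR for ENSBTAG00000020580, ENSBTAG00000039504, ENSBTAG00000003629 and ENSBTAG00000000604 was 0.260, 0.228, 0.410 and 0.698, and over all alternatives it went down to 6.16e-23, 1.78e-31, 1.21e-17 and 2.01e-15. Without animal 20 it was 0.0961, 0.0617, 0.0572 and 0.0910, and without animal 1 it was 0.0832 for the first. That gene did not pass the filter without animal 50. With the stricter 100 genes in place of all calls, 97.0% of rises and 21.0% of falls moved in animal 3 as in the other animals. With a prior count of 0.5, 215 rises and 180 falls agreed in all 4 pairs, and with library totals 215 and 181.

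With 4 animals and 1 library per treatment of each animal, counts of calls depend on single animals. No sign-flip test over 4 pairs can fall below 0.125. At the lowest abundance a change rests on few reads, and changes too small for this depth were not detectable.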
